A study of Mus musculus with 12 samples.

Results

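The aminoacyl-tRNA synthetases were followed as a set of 34 genes in mouse pancreas with and without cerulein-induced chronic pancreatitis. A gene belonged to the set where an array probe set was annotated to that gene alone and its symbol was an amino acid letter followed by "ars", with or without a closing 1 or 2, or was Farsa, Farsb, Fars2 or Eprs. Each gene was represented by its probe set with the highest mean over 12 arrays. The set held 34 of the 18194 genes that had a probe set of their own. By symbol alone, the 15 ending in 2 were taken as mitochondrial enzymes and the other 19 as cytosolic ones. A gene that serves both compartments would stand among the 19. A gene was tested where its signal exceeded log2 4 on at least 3 arrays. This left 8505 genes, among them 29 synthetase genes, the 19 cytosolic and 10 of the mitochondrial ones. The other 5 mitochondrial genes are given below by their values.

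Gene expression was measured on Affymetrix arrays with 1 array per mouse and 3 mice in each of 4 groups, all 8 weeks old. The groups were C57BL6/NHsd mice from Harlan and C57BL6/J mice from Jackson, called NHsd and J here, each given either cerulein or saline. Cerulein acts on the cholecystokinin receptors of acinar cells, the enzyme-secreting cells of the pancreas, and repeated injection is a model of chronic pancreatitis. The labels call the control mice female and give no sex for the cerulein mice, and neither the dosing schedule nor shared litters are given in the sources used here.

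Aminoacyl-tRNA synthetases join each amino acid to its own tRNA, which then carries it to the ribosome. One set of enzymes serves the cytosol and another, encoded by separate nuclear genes for most amino acids, serves the ribosomes inside mitochondria. Several cytosolic synthetases assemble into the multisynthetase complex around 3 scaffold proteins. Acinar cells make and export digestive enzymes at a very high rate and so use charged tRNA heavily. When an amino acid runs short or proteins misfold, the transcription factor ATF4 raises many genes of amino acid supply, including cytosolic synthetase genes.

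ATF4 binds a composite element, TGATGNAA, where N is any base. This element was sought on both strands in RefSeq promoters of build GRCm38.p6, from 250 bases before to 50 bases after the start of the gene. The 26 synthetase genes with an entry included 12 cytosolic and 14 mitochondrial ones. The letters occurred in 5 of the 26 (19.2%), against 3.97% of all 32851 promoters of the same length. A synthetase gene counted where any of its promoter entries matched, whereas the share of all is by entry. All 5 were cytosolic. The matched stretches are shown because these are the synthetase genes whose start carries the letters of that element, and their expression is given further on. Each is 30 bases on the strand of the gene, with the match in capitals, which reads TTNCATCA where the element lies on the other strand.
Yars (chr4:129189895-129189924, plus strand): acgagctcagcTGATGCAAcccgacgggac
Gars (chr6:55037960-55037989, plus strand): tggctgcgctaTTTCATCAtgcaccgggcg
Aars (chr8:111033840-111033869, plus strand): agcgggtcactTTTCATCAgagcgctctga
Iars (chr13:49682126-49682155, plus strand): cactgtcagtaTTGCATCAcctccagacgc
Tars (chr15:11399655-11399684, minus strand): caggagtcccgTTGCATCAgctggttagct
The matches lay 3 bases after the start in Yars, 30 before it in Gars, 7 after it in Iars and 15 before it in Tars. The match shown for Aars lay 9 bases after its start. A match describes the letters only. The promoters of Cars, Hars, Hars2, Lars, Nars, Rars, Vars and Wars had no entry.

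The pancreas after cerulein differed from the saline pancreas in cell content and in overall signal, and these measurements stand beside every result on the synthetases. The 14 of 20 acinar markers with a probe set averaged 15.1 to 15.2 on the log2 scale on the saline arrays and 14.4 to 14.8 on the cerulein arrays. All 14 were called lower (10.1% of all genes). With every array set to the same median 14 were lower (36.1% of all genes), and after quantile normalization 7 were (34.2% of all genes). Macrophage markers averaged 4.82 to 5.36 and then 8.11 to 8.82, markers of fibroblasts and stellate cells 5.86 to 6.48 and then 7.64 to 8.78, and genes of proliferating cells 3.78 to 4.08 and then 6.74 to 7.69. Of 10 lymphocyte markers, 8 stayed under log2 4 on every array. In bulk tissue, fewer cells of a type and less RNA per cell cannot be told apart, and the part of these cell types in the synthetase results was not tested. The hybridization spike-ins averaged 8.81 to 10.01 on the saline arrays and 7.36 to 7.74 on the cerulein arrays, and the poly-A spike-ins 9.81 to 10.96 and 7.13 to 8.67. The median tested gene was 0.49 higher after cerulein on the deposited scale. Setting every array to the same median lowered each change by 0.58, so the counts, and the changes averaged over substrains that lose their call or turn, are also given on that scale. Within groups the arrays correlated at 0.983 to 0.994 over genes, the lowest being J cerulein replicate 1.

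After cerulein, averaged over both substrains, 15 of the 29 tested synthetase genes rose, 5 fell and 9 did not pass the test. Of all genes tested, 59.4% were called higher and 10.1% lower, so the share of synthetase genes that rose, 51.7%, was not above that of genes at large, and the share that fell was 17.2%. The 15 include Farsa and Hars2, which entered the test only through cerulein arrays and had to differ. Arrays of the treatments did not overlap for 8 genes that rose (40% of all genes) and 1 that fell (4.94% of all genes). The largest rises were of Rars, the arginyl-tRNA synthetase, and Eprs, the fused glutamyl- and prolyl-tRNA synthetase. The largest falls were of Wars and Yars, which charge tryptophan and tyrosine tRNAs. The median synthetase change was 0.32 on the log2 scale against 0.49 for all genes tested, and 9 of the 29 lay above the all-gene median. With all arrays set to the same median, 2 of the 29 were called higher (26.6% of all genes) and 14 lower (36.1% of all genes), and after quantile normalization 2 were called higher (28% of all genes) and 13 lower (34.2% of all genes). The calls that had the same direction under all 3 scalings were the rises of Eprs and Rars and the falls of Cars, Fars2, Mars1, Wars and Yars.

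**Figure D1:**
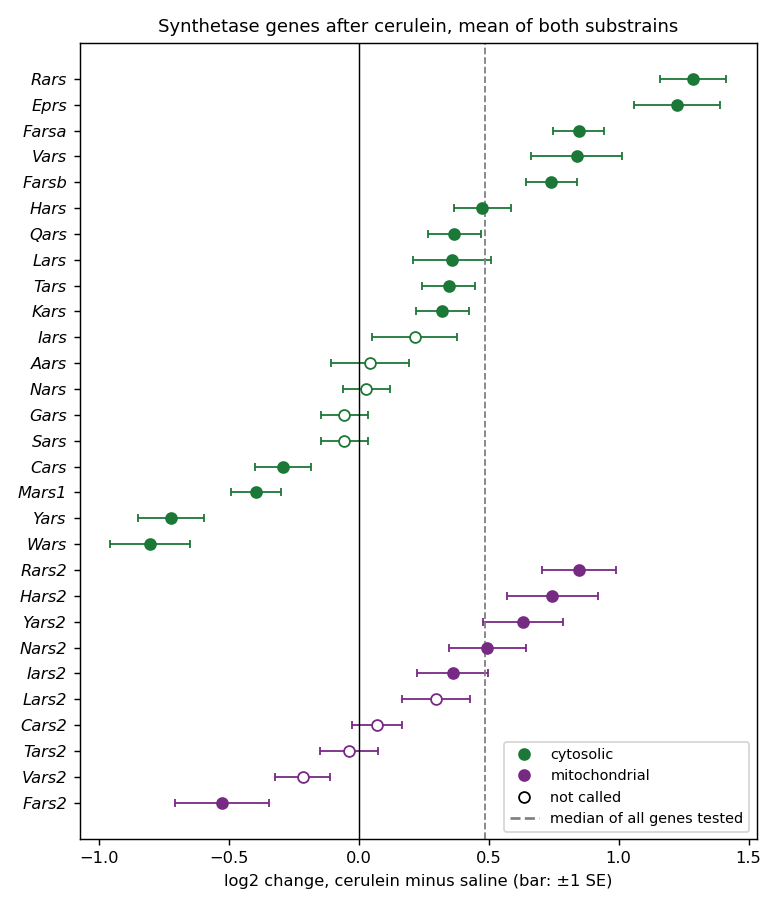
Log2 change after cerulein on the deposited scale (horizontal axis, mean of both substrains, bars of 1 SE) for the 29 tested synthetase genes; filled points were called by limma and the dashed line is the median of all genes tested, 0.49. Rars (1.29) and Eprs (1.22) lie farthest right and Wars (-0.80) and Yars (-0.72) farthest left; with equal array medians every point would move left by 0.58, which turns the sign of Hars, Qars, Lars, Tars, Kars, Iars2 and Nars2 among the genes called higher.

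The cytosolic enzymes of the multisynthetase complex held both of the largest rises and 1 fall. Of the 7 measured, Eprs, Rars, Qars, Lars and Kars were called higher, Mars1 lower, and Iars did not pass the test. Their median change was 0.36. The shares of all genes were 59.4% higher and 10.1% lower. With equal medians 2 of the 7 were higher (26.6% of all genes) and 2 lower (36.1% of all genes).

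Eprs carries 2 catalytic activities in 1 protein. Its signal was 7.83, 7.32 and 7.61 on the NHsd saline arrays and 7.71, 7.73 and 7.52 on the J saline arrays. After cerulein it was 8.94, 8.81 and 8.88 in NHsd and 8.18, 9.22 and 9.05 in J. Every cerulein array lay above every saline array, and the lowest of the cerulein values came from J replicate 1, the array that stood apart from its group. The change was 1.22 ± 0.16 (SE; 3 arrays in each of 4 groups; limma adjusted p = 3.33e-05), and 1.38 ± 0.10 without that array. All 3 probe sets of Eprs that passed the filter were called higher, with changes of 0.49 to 1.22. With equal medians its change was 0.64 and the call held for the probe set with the highest mean. The other probe sets then changed by -0.08 and -0.04 and were not called. In J alone they were not called on the deposited scale either, at 0.23 and 0.33. The 250 bases before the start of Eprs (chr1:185362794-185363043, plus strand, GRCm38.p6) are shown because this was the largest rise among genes with a promoter entry. They contain neither TGATGNAA nor CACGTG, the E-box letters that MYC and related factors bind, and 64.0% of the bases are G or C.
Eprs upstream: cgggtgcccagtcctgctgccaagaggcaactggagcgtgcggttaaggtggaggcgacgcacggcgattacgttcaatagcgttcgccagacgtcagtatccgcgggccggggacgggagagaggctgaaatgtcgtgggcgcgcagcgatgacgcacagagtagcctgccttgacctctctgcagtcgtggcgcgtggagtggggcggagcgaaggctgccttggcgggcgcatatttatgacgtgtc

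Rars, which supplies charged arginine tRNA, separated the treatments as clearly. The NHsd saline arrays read 7.15, 6.98 and 6.50 and the J saline arrays 6.68, 6.81 and 7.10. The cerulein arrays read 8.17, 8.01 and 8.25 in NHsd and 8.06, 8.22 and 8.22 in J. No cerulein array overlapped the saline arrays, and the means of the substrains nearly coincided within each treatment. The change was 1.29 ± 0.13 (SE; limma adjusted p = 2.75e-06), equal to 0.70 with equal medians, where it was also called.

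Qars, the glutaminyl-tRNA synthetase, rose by less. Its saline signals were 8.42, 8.30 and 8.20 in NHsd and 8.49, 8.54 and 8.49 in J, and its cerulein signals 8.79, 8.75 and 8.47 in NHsd and 9.08, 8.84 and 8.70 in J. The arrays of the treatments overlapped when substrains were pooled but not within either substrain. The change was 0.37 ± 0.10 (SE; limma adjusted p = 0.0057) on the deposited scale and -0.21 with equal medians. Of its 3 probe sets that passed the filter, 1 was called, and their changes ran from 0.04 to 0.37.

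Lars (leucine) and Kars (lysine) were called higher with changes of 0.36 and 0.32. The signal of Lars was 7.87, 7.64 and 7.71 in NHsd saline, 7.91, 7.94 and 7.81 in J saline, 8.53, 8.08 and 8.27 in NHsd cerulein and 7.49, 8.38 and 8.28 in J cerulein. J cerulein replicate 1 was the lowest of all 12 arrays for this gene, and 5 of the 6 cerulein arrays lay above every saline array. With that array the limma adjusted p was 0.0486, and without it the change was 0.50 (adjusted p = 0.000649). The call was lost in 10 of the 12 fits that left out 1 array, with changes down to 0.28, and held without J cerulein replicate 1 or NHsd cerulein replicate 2. Kars read 8.05, 7.89 and 7.83 in NHsd saline, 8.10, 7.68 and 7.80 in J saline, 8.40, 8.14 and 8.17 in NHsd cerulein and 8.22, 8.25 and 8.10 in J cerulein, so that only J saline replicate 1 reached the lowest cerulein value. The limma adjusted p of Kars was 0.0138 on the deposited scale. With equal medians its change was -0.26 and it was called lower. The change of Lars was then -0.22 and was not called.

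Iars, the isoleucyl-tRNA synthetase, did not pass the test. It read 9.04, 9.16 and 8.91 in NHsd saline, 9.21, 9.58 and 9.24 in J saline, 9.49, 9.56 and 9.50 in NHsd cerulein and 8.63, 9.55 and 9.71 in J cerulein. The NHsd cerulein arrays all lay above the NHsd saline arrays, while J cerulein replicate 1 was the lowest of all 12. The change was 0.21 ± 0.16 (SE; limma adjusted p = 0.258), and without that array 0.38 ± 0.09 (adjusted p = 0.00269).

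Mars1, the methionyl-tRNA synthetase, which also charges the initiator tRNA, fell. Its saline signals were 7.50, 7.52 and 7.43 in NHsd and 7.96, 7.79 and 7.60 in J. Its cerulein signals were 7.42, 7.17 and 7.33 in NHsd and 7.07, 7.19 and 7.23 in J. Every cerulein array lay below every saline array, by a narrow margin between NHsd arrays and a wider one in J. The change was -0.40 ± 0.10 (SE; limma adjusted p = 0.00296) and it was lower under all 3 scalings.

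The 3 scaffold proteins of the complex, Aimp1, Aimp2 and Eef1e1, were all called higher (59.4% of all genes). Eef1e1 lay between 6.44 and 7.33 on the saline arrays and between 7.66 and 8.81 on the cerulein arrays, a change of 1.07 ± 0.18 (SE; limma adjusted p = 0.000197) that was called under all 3 scalings. Aimp1, also released as a cytokine, changed by 0.79 ± 0.14 (adjusted p = 0.000233), with no overlap of arrays, and was not called with equal medians. Aimp2 changed by 0.27 ± 0.10 (adjusted p = 0.0274), with overlap, and by -0.31 with equal medians, where it was called lower.

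Outside the complex, 5 of 12 cytosolic synthetase genes were called higher, 3 lower and 4 not at all, with a median change of 0.04. The rises were of Farsa, Farsb, Vars, Hars and Tars, and the falls of Wars, Yars and Cars. Of all genes, 59.4% were called higher and 10.1% lower. With equal medians 0 of the 12 were called higher (26.6% of all genes) and 7 lower (36.1% of all genes).

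The phenylalanyl enzyme is built of an alpha subunit, from Farsa, and a beta subunit, from Farsb. Farsb was 7.59, 7.31 and 7.35 in NHsd saline, 7.30, 7.54 and 7.40 in J saline, 8.29, 8.06 and 8.14 in NHsd cerulein and 8.02, 8.24 and 8.20 in J cerulein. The treatments did not overlap. The change was 0.74 ± 0.10 (SE; limma adjusted p = 2.84e-05), all 3 of its probe sets that passed the filter were called higher, and with equal medians the call was lost. Farsa read 3.23, 3.21 and 3.23 in NHsd saline, 2.92, 3.23 and 3.10 in J saline, 3.95, 3.83 and 3.93 in NHsd cerulein and 4.16, 4.05 and 4.08 in J cerulein. Farsa thus lay under log2 4 on 9 of the 12 arrays and passed the filter only through the 3 J cerulein arrays, so it had to differ. Against log2 4 its rise in J was at least 1.07-fold, and no fold is given in NHsd, where all arrays lay under log2 4. The fitted change was 0.85 ± 0.10, and with equal medians it was not called.

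Vars, the valyl-tRNA synthetase, rose from 4.38 to 5.03 on the saline arrays to 5.13 to 6.03 on the cerulein arrays. The ranges did not overlap, and the change was 0.84 ± 0.17 (SE; limma adjusted p = 0.000958). With equal medians it was 0.26 and not called.

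Hars, which charges histidine tRNA, read 8.93, 8.98 and 8.84 in NHsd saline, 9.52, 9.14 and 8.95 in J saline, 9.31, 9.47 and 9.45 in NHsd cerulein and 9.85, 9.60 and 9.53 in J cerulein. Within each substrain every cerulein array lay above every saline array, though J saline replicate 1 was higher than all NHsd cerulein arrays. The change was 0.48 ± 0.11 (limma adjusted p = 0.00194), both of its probe sets that passed the filter were called higher, and with equal medians the change was -0.11 and not called.

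Tars, for threonine, lay at 8.12 to 8.40 on the saline arrays and 8.21 to 8.74 on the cerulein arrays, with overlap through J cerulein replicate 1. Its change was 0.35 ± 0.10 (limma adjusted p = 0.0096), and -0.24 with equal medians, not called.

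Wars, the tryptophanyl-tRNA synthetase, showed the largest fall. It read 9.12, 8.86 and 8.88 in NHsd saline, 8.95, 8.76 and 9.02 in J saline, 8.96, 7.98 and 8.84 in NHsd cerulein and 7.68, 7.69 and 7.62 in J cerulein. All 3 J cerulein arrays were more than a log2 unit below every saline array, whereas in NHsd only replicate 2 left the saline range by a wide margin. The change averaged over substrains was -0.80 ± 0.15 (SE; limma adjusted p = 0.000507), and -0.65 (adjusted p = 0.000142) without NHsd cerulein replicate 2. All 4 probe sets of Wars that passed the filter were called lower, with changes of -0.95 to -0.80. Human WARS1 is known as an interferon-induced gene. Here the interferon response genes averaged 3.62 to 3.95 on the saline arrays and 4.21 to 6.05 on the cerulein arrays, with group means after cerulein of 5.67 in J and 4.56 in NHsd, so in these groups Wars was lowest where the interferon list was highest. The part of this difference in the Wars result was not tested.

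Yars, the tyrosyl-tRNA synthetase, fell in both substrains. Its saline signals were 6.59, 6.73 and 6.58 in NHsd and 6.60, 6.38 and 5.98 in J, and its cerulein signals 6.03, 5.80 and 5.81 in NHsd and 5.40, 5.60 and 5.87 in J. The arrays did not overlap within either substrain, and across substrains only J saline replicate 3 fell into the cerulein range. The change was -0.72 ± 0.13 (SE; limma adjusted p = 0.000263). The 250 bases before the start of Yars (chr4:129189653-129189902, plus strand, GRCm38.p6) are shown as those of the largest fall with a promoter entry. They hold neither motif, 59.2% of their bases are G or C, and they end just before the TGATGCAA match given above.
Yars upstream: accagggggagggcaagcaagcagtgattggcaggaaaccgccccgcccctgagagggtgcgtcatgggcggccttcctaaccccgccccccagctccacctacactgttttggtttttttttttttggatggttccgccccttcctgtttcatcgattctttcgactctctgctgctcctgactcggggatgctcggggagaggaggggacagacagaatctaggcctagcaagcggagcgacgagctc

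Cars, for cysteine, was lower by less. It lay at 5.59 to 6.08 on the saline arrays and 5.43 to 5.70 on the cerulein arrays, which overlapped, and changed by -0.29 ± 0.11 (limma adjusted p = 0.0288). The call was lost without NHsd cerulein replicate 3 (-0.26), NHsd saline replicate 2 (-0.27), J saline replicate 2 (-0.27) or J saline replicate 3 (-0.24).

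The cytosolic genes that did not pass the test outside the complex were Nars, Gars, Aars and Sars, which serve asparagine, glycine, alanine and serine. Nars read 9.76, 9.65 and 9.75 in NHsd saline, 9.74, 9.87 and 9.68 in J saline, 10.01, 9.68 and 9.77 in NHsd cerulein and 9.59, 9.69 and 9.87 in J cerulein. Gars read 9.30, 9.17 and 9.20 in NHsd saline, 9.10, 9.26 and 9.22 in J saline, 9.29, 9.10 and 9.09 in NHsd cerulein and 8.98, 9.27 and 9.20 in J cerulein. For both genes the 4 groups overlapped. The change of Nars was 0.03 (95% interval -0.17 to 0.23) and that of Gars -0.05 (-0.25 to 0.14). The other probe set of Nars that passed the filter was called higher by 0.28.

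Aars lay at 5.65 to 6.40 on the saline arrays and 5.59 to 6.29 on the cerulein arrays, and changed by 0.04 (95% interval -0.28 to 0.37). Sars lay at 7.31 to 7.65 and 7.34 to 7.53, with a change of -0.06 (-0.25 to 0.14), and its other probe set that passed the filter was called lower by -0.48. With equal medians, and after quantile normalization, Nars, Gars, Aars and Sars were all called lower.

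**Figure D2:**
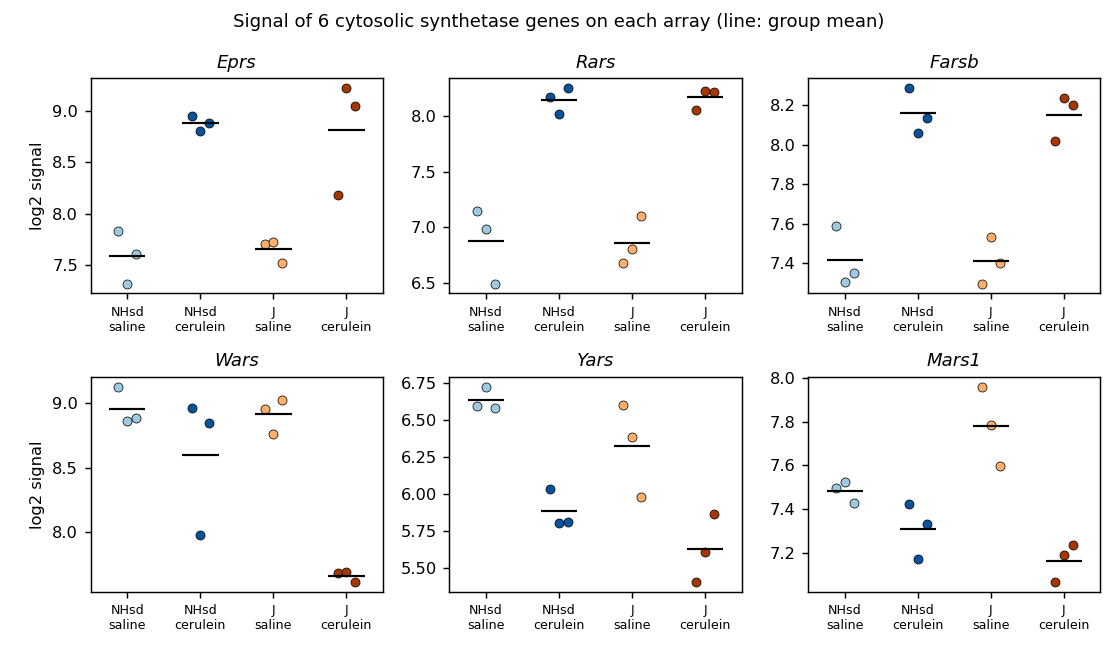
Log2 signal (vertical axes, which differ between panels and do not start at 0) of Eprs, Rars, Farsb, Wars, Yars and Mars1 on each of the 12 arrays, by group; each point is 1 array and each line a group mean. The cerulein arrays lie above the saline arrays for Eprs, Rars and Farsb and below them for Mars1, and the 3 J cerulein arrays of Wars lie at 7.62 to 7.69; with equal medians the rise of Farsb was not called.

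By catalytic fold, 4 of the 9 cytosolic class I genes were called higher and 4 lower, with Iars not called, and 5 of the 9 class II genes were called higher and 0 lower. Eprs, which joins an enzyme of each class, was left out of this count. With equal medians the counts were 1 higher and 4 lower for class I and 0 higher and 5 lower for class II. Of all genes, 59.4% were called higher and 10.1% lower, and with equal medians 26.6% and 36.1%. The difference between classes was not tested.

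Of the 10 mitochondrial synthetase genes tested, 5 were called higher after cerulein, 1 lower and 4 not at all. The rises were of Rars2, Hars2, Yars2, Nars2 and Iars2, and the fall was of Fars2. Of all genes, 59.4% were called higher and 10.1% lower. The median change was 0.33, against 0.32 for the cytosolic genes and 0.49 for all genes tested. With equal medians 0 were called higher (26.6% of all genes) and 5 lower (36.1% of all genes).

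Rars2, the mitochondrial arginyl-tRNA synthetase, had the largest change among them. It read 4.95, 4.47 and 4.94 in NHsd saline, 5.26, 4.87 and 5.05 in J saline, 5.91, 5.32 and 5.85 in NHsd cerulein and 6.03, 5.76 and 5.74 in J cerulein. The treatments did not overlap, and the change was 0.85 ± 0.14 (SE; limma adjusted p = 0.000186). Yars2, the mitochondrial partner of Yars, ran from 4.38 to 5.05 on the saline arrays and from 5.08 to 5.81 on the cerulein arrays, a change of 0.63 ± 0.15 (limma adjusted p = 0.00292). Rars2 and Yars2 both lost their calls with equal medians. Arginyl-tRNA synthetases of both compartments were thus called higher on the deposited scale, while for tyrosine the cytosolic gene fell and the mitochondrial gene rose.

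Hars2 lay under log2 4 on all 6 saline arrays (2.81 to 3.95), passed the filter only through cerulein arrays (3.97 to 4.50), and so had to differ. Its mean after cerulein was 1.23-fold log2 4 in NHsd, where the rise was called. In J the mean was 1.17-fold log2 4, and the rise there was not called (limma adjusted p = 0.0817). In each substrain 1 cerulein array lay under log2 4. The fitted change of Hars2 over both substrains was 0.75 ± 0.17. Nars2 lay at 3.34 to 4.05 on the saline arrays and 3.96 to 4.91 on the cerulein arrays. Its mean after cerulein was 1.11-fold log2 4 in NHsd, where the rise was not called (limma adjusted p = 0.0619). Over both substrains its fitted change was 0.49 ± 0.15 (limma adjusted p = 0.0097), or -0.087 with equal medians. Iars2 overlapped between treatments, at 5.73 to 6.23 and 5.96 to 6.71, with a change of 0.36 ± 0.14 (limma adjusted p = 0.0326), or -0.22 with equal medians. Its call was lost in 6 of the 12 fits that left out 1 array, without NHsd cerulein replicate 1 (0.31), NHsd saline replicate 1 (0.33), J cerulein replicate 2 (0.27) or 3 (0.36), or J saline replicate 2 (0.35) or 3 (0.31). With equal medians Hars2, Nars2 and Iars2 were not called.

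Fars2, the mitochondrial phenylalanyl-tRNA synthetase, went the other way from the cytosolic subunits Farsa and Farsb. It read 6.77, 6.74 and 6.50 in NHsd saline, 5.70, 6.28 and 6.30 in J saline, 5.97, 5.62 and 5.82 in NHsd cerulein and 6.56, 5.67 and 5.50 in J cerulein. The NHsd treatments were separate, and the J treatments overlapped through J saline replicate 1, which was low, and J cerulein replicate 1, which was high. The change was -0.53 ± 0.18 (SE; limma adjusted p = 0.0207) and -0.69 (adjusted p = 0.000627) without J cerulein replicate 1. It was not called when J cerulein replicate 2 or 3 or J saline replicate 2 or 3 was left out, at changes of -0.47, -0.42, -0.48 and -0.47. Both of its probe sets that passed the filter were called lower.

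The other tested mitochondrial genes were not called. Lars2 changed by 0.30 ± 0.13 (limma adjusted p = 0.0586), Cars2 by 0.07 ± 0.10 (adjusted p = 0.521), Tars2 by -0.04 ± 0.11 (adjusted p = 0.774) and Vars2 by -0.22 ± 0.11 (adjusted p = 0.0871). On the saline and then the cerulein arrays, Lars2 lay at 5.03 to 5.99 and 5.63 to 6.08, and Cars2 at 5.37 to 5.61 and 5.36 to 5.84. Tars2 lay at 6.58 to 7.07 and 6.56 to 6.81, and Vars2 at 4.14 to 4.61 and 3.98 to 4.14. Lars2 was called higher in 3 of the 12 fits that left out 1 array. With equal medians all 4 were called lower.

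Aars2, Ears2, Mars2, Sars2 and Wars2 did not pass the filter. Ears2 exceeded log2 4 on 1 array, and the other 4 on none. Aars2 lay at 3.45 to 3.92 on the saline arrays and 3.17 to 3.45 on the cerulein arrays, Ears2 at 3.60 to 3.72 and 3.60 to 4.19, and Wars2 at 2.90 to 3.35 and 2.79 to 3.34. Mars2 lay between 2.46 and 2.87 and Sars2 between 2.65 and 2.67, close to the 2.39 floor of the table. Signals this low give no order between groups.

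The mean over the 19 cytosolic genes shifted by 0.25 after cerulein and the mean over the 10 tested mitochondrial genes by 0.27. The cytosolic mean was 7.44 ± 0.08 in NHsd saline and 7.76 ± 0.09 in NHsd cerulein, against 7.49 ± 0.02 and 7.67 ± 0.16 for the J mice (SD, n = 3). The mitochondrial mean was 5.10 ± 0.11 and 5.40 ± 0.12 for NHsd and 5.19 ± 0.08 and 5.43 ± 0.09 for J. The cytosolic arrays overlapped between treatments through J cerulein replicate 1, at 7.49, and the mitochondrial arrays did not overlap (up to 5.267 on saline arrays, from 5.273 on cerulein arrays). With equal medians each of these shifts turns below 0, since all are smaller than 0.58.

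The cytosolic minus mitochondrial difference is read here only as a change between groups, since probe sets differ in brightness. It averaged 2.34 in NHsd saline, 2.35 in NHsd cerulein, 2.29 in J saline and 2.24 in J cerulein. Its change after cerulein was 0.02 in NHsd and -0.05 in J, and single arrays ran from 1.98 to 2.46. The SD within groups ran from 0.03 to 0.23. J cerulein replicate 1 had the lowest difference, 1.98, with cytosolic genes low and mitochondrial genes high. The change depended on which genes entered. All 15 mitochondrial genes include the 5 untested ones, whose signals are too low to order groups. With them the mitochondrial mean shifted by 0.16 in NHsd, against 0.30 without them. The difference then changed by 0.16 in NHsd, from 2.99 ± 0.08 to 3.15 ± 0.01 (SD, n = 3) with no overlap of arrays. In J it changed by 0.02, from 2.99 ± 0.05 to 3.01 ± 0.24. These values are not read as a gain of cytosolic over mitochondrial genes. With a filter at log2 6, which left 19 synthetase genes, the change over both substrains was 0.28.

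**Figure D3:**
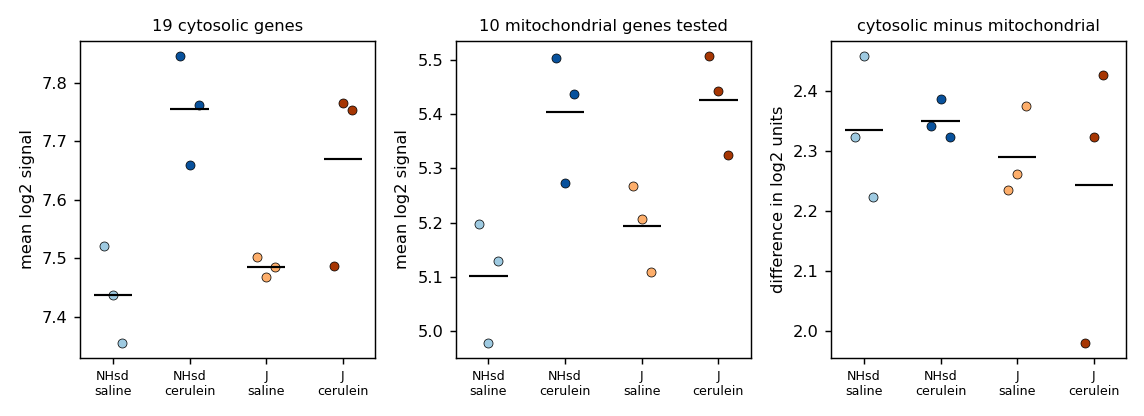
Mean log2 signal of the 19 cytosolic genes (left), of the 10 tested mitochondrial genes (middle) and their difference (right) on each array, by group; points are arrays, lines are group means and the axes do not start at 0. Both means were higher after cerulein on the deposited scale, though not with equal medians, and the difference ranged from 1.98 on J cerulein replicate 1 to 2.46.

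Within each substrain the arginine and glutamate-proline enzymes led the rises. In NHsd, 13 of the 29 genes were called higher after cerulein (48.7% of all genes) and 2 lower (6.6% of all genes). In J, 9 were called higher (47.8% of all genes) and 3 lower (7.61% of all genes). Eprs, Farsb, Hars, Qars, Rars, Rars2, Vars and Yars2 were called higher and Yars lower in both. The group means compared have no arrays in common, but each gene's spread was estimated over all groups together. The calls in NHsd and in J are therefore not independent of each other. The share of all genes called in both substrains is not given here. Farsa was also called in both, but lay under log2 4 on all 6 NHsd arrays. With equal medians, 2 were called higher (20.2% of all genes) and 11 lower (28.8% of all genes) in NHsd, and 3 higher (20.9% of all genes) and 14 lower (29.4% of all genes) in J. Eprs and Rars were then higher and Yars lower in both.

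In NHsd, Hars2 (0.96), Lars2 (0.61), Lars (0.55) and Tars (0.49) were called higher as well, and Fars2 fell by 0.87 (limma adjusted p = 0.0124). In J, Wars changed by -1.25 ± 0.22 (SE; limma adjusted p = 0.000469) and Mars1 by -0.62 ± 0.14 (adjusted p = 0.0024). The NHsd changes of these 2 genes were -0.36 and -0.17 and not called. The other Wars probe sets that passed the filter changed in NHsd by -0.65, -0.56 and -0.80, and the first and last of these were called lower. The last averaged 6.54 in NHsd saline and 5.90 in J saline, and 5.74 and 5.03 after cerulein. Without J cerulein replicate 1, Lars (0.45) and Tars (0.34) were also called higher and Fars2 (-0.51) lower in J. Leaving out NHsd saline replicate 3 lowered the number called higher in NHsd from 13 to 8. That of all genes went from 4139 of 8505 to 3608 of 8480.

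The test of the difference between the substrains' cerulein effects called 0 of the 29 synthetase genes by limma at an adjusted p of 0.05, and 0.0118% of all genes. At an unadjusted p below 0.05 the test of the difference picked out 3 of 29, against 7.03% of all genes. These were Wars, with a J minus NHsd difference of -0.88 ± 0.31 (limma adjusted p = 0.702), Lars2 (-0.63, adjusted p = 0.702) and Mars1 (-0.44, adjusted p = 0.702). For Wars the 95% interval of the difference ran from -1.55 to -0.22. A substrain difference for Wars is therefore not shown after correction. Without NHsd cerulein replicate 2 the difference was -1.19, with an adjusted p of 0.151.

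**Figure D4:**
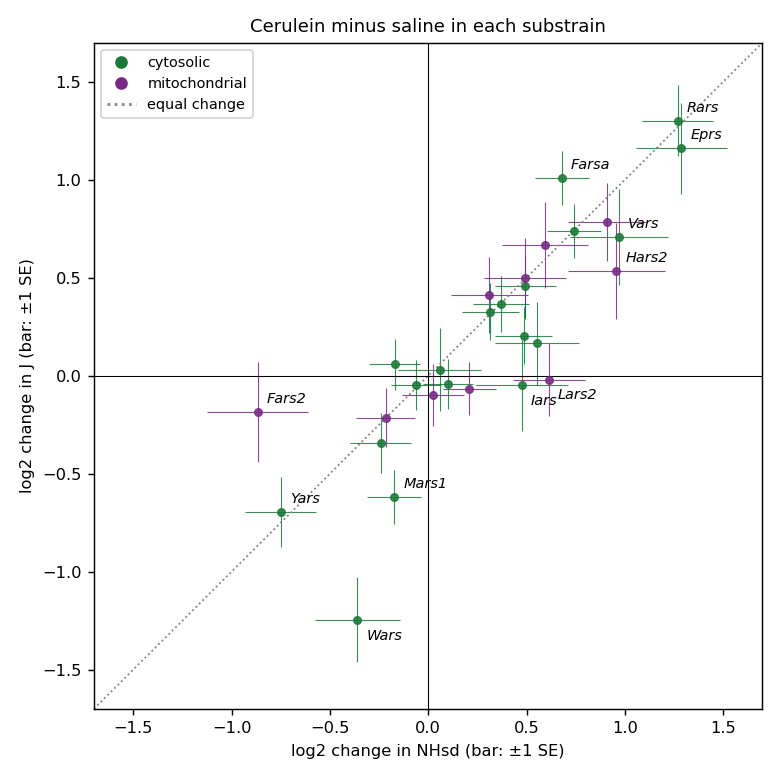
Log2 change after cerulein in NHsd (horizontal axis) and in J (vertical axis) for the 29 tested synthetase genes on the deposited scale, with bars of 1 SE and the dotted line of equal change. Rars and Eprs lie top right near the line, Yars lies bottom left near it, and Wars (-0.36 in NHsd, -1.25 in J) lies farthest below it; equal medians would lower every gene by 0.59 in NHsd and 0.58 in J, which turns the sign of the smaller rises.

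Between the substrains, 0 of the 29 genes were called by limma in saline (0.0588% of all genes), with 3 at an unadjusted p below 0.05 (6.42% of all genes), and 0 after cerulein (0.223% of all genes), with 1 at that unadjusted level (9.41% of all genes). In saline those were Lars2, higher in J by 0.51 ± 0.18, Fars2, lower in J at -0.58 ± 0.26, and Mars1, higher in J by 0.30 ± 0.14. The other probe set of Fars2 that passed the filter averaged 6.13 in NHsd saline and 6.03 in J saline. After cerulein the gene at that unadjusted level was Wars, at -0.93 ± 0.22 in J relative to NHsd (limma adjusted p = 0.162), with all J arrays below all NHsd arrays. Wars was called lower in J with equal medians (-0.99, adjusted p = 0.0458, 0.118% of all genes), after quantile normalization (-1.06, adjusted p = 0.0347, 0.141% of all genes) and without NHsd cerulein replicate 2 (-1.24, adjusted p = 0.0049). In saline the Wars arrays of the substrains overlapped for the probe set with the highest mean.

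Among the synthetases and related enzymes that the symbol rule left out, Pstk and Sepsecs, which act in turn to make the selenocysteine tRNA, were called higher, by 0.89 ± 0.23 and 0.68 ± 0.14 (SE; limma adjusted p = 0.00361 and 0.000746). Pstk lay at 4.47 to 5.33 on the saline arrays and 5.41 to 6.77 on the cerulein arrays, and Sepsecs at 4.21 to 5.36 and 5.41 to 5.67, without overlap in either. Tarsl2, a second cytosolic threonyl enzyme, changed by 0.01 ± 0.14 and was not called. Pars2, the mitochondrial prolyl enzyme, did not pass the filter, at 2.45 to 3.03. With equal medians Pstk and Sepsecs were not called and Tarsl2 was called lower. Dars was not analysed here.

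Of 3 tested genes for the tRNA amidation by which mitochondria make glutaminyl tRNA and for its neighbours, Qrsl1, a subunit of the amidotransferase, was called higher by 1.07 ± 0.12 (SE; limma adjusted p = 6.85e-06), also with equal medians, where the other 2, Gatc and Mtfmt, were called lower. Of 8 tested mitochondrial translation factors 6 were called higher (59.4% of all genes) and 0 lower (10.1% of all genes), with a median change of 0.59. The largest were Mtif2, an initiation factor (1.08), Tsfm, an elongation factor (0.90), and Mtrf1l, a release factor (0.88). With equal medians 2 of the 8 were higher (26.6% of all genes) and 1 lower (36.1% of all genes), and Tsfm was not called.

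In the cytosol, the elongation factors, which bring charged tRNA to the ribosome and move it on, were mixed. Of 7 tested, Eif5a (0.67 ± 0.07, limma adjusted p = 4.27e-06) and Eef1d (0.40 ± 0.10, adjusted p = 0.00365) were called higher. Eef2, the translocation factor, was called lower (-0.90 ± 0.09, adjusted p = 3.67e-06) under all 3 scalings. Of all genes, 59.4% were called higher and 10.1% lower. With equal medians 0 of the 7 were called higher (26.6% of all genes) and 5 lower (36.1% of all genes). Eif5a was then at 0.090 and Eef1d at -0.18. Of 4 tested genes of tRNA editing and release, 1 was called higher, Aarsd1 (0.52 ± 0.12, adjusted p = 0.00227), an alanyl-tRNA editing enzyme. With equal medians 0 of the 4 were higher (26.6% of all genes) and 1 lower (36.1% of all genes). Aarsd1 was then at -0.063 and not called.

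The amino acid response genes that ATF4 drives fell more often than they rose. Of 37 tested, 15 were called lower (10.1% of all genes) and 11 higher (59.4% of all genes). The median change was -0.16 against 0.49 for all genes. With equal medians 23 were lower (36.1% of all genes) and 2 higher (26.6% of all genes). The falls included Mthfd2, of mitochondrial one-carbon metabolism (-1.10 ± 0.11, limma adjusted p = 2.03e-06), and Chac1, a glutathione-degrading enzyme (-1.14 ± 0.35, adjusted p = 0.0111). Fgf21, a secreted hormone, averaged 5.93 in NHsd saline and 5.75 in J saline. Its group means after cerulein were 3.12 and 3.44, under log2 4 (limma adjusted p = 2.8e-05). If Fgf21 passed the filter only through saline arrays, it had to differ and its p is no support. Asns, asparagine synthetase, which is an amidotransferase and no tRNA synthetase, changed by -0.68 ± 0.10 (adjusted p = 8.7e-05), and Atf4 itself by -0.31 ± 0.13 (adjusted p = 0.0409).

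The largest of the 11 rises on the same list were of Ddit4, Ddit3 and Atf3. Ddit4, an inhibitor of mTORC1 signalling, changed by 1.72 ± 0.19 (limma adjusted p = 5.86e-06), Ddit3, which encodes CHOP, by 1.09 ± 0.10 (adjusted p = 1.38e-06) and Atf3 by 1.03 ± 0.21 (adjusted p = 0.000822), which was not called with equal medians. Of the kinases and regulators upstream of ATF4, 3 of 11 were called higher (59.4% of all genes) and 1 lower (10.1% of all genes). With equal medians 2 were higher (26.6% of all genes) and 8 lower (36.1% of all genes). Impact, an inhibitor of the GCN2 kinase, changed by 1.57 ± 0.23 (limma adjusted p = 6.57e-05). Its saline means lay under log2 4, so the size is inexact. If Impact passed the filter only through cerulein arrays, it had to differ and its p is no support. Eif2b3, a subunit of the exchange factor of eIF2, changed by 1.21 ± 0.12 (limma adjusted p = 2.14e-06). Eif2ak3, which encodes PERK, changed by 0.43 ± 0.16 (limma adjusted p = 0.0321), or -0.15 with equal medians, not called. Eif2ak1, the heme-regulated kinase, changed by -0.39 ± 0.12 (adjusted p = 0.0135).

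The synthetase genes with the ATF4 element near their start lay below the all-gene median of 0.49, above which only 9 of the 29 tested synthetase genes lay. Their changes were -0.72 for Yars, -0.05 for Gars, 0.04 for Aars, 0.21 for Iars and 0.35 for Tars. So 1 was called lower (10.1% of all genes), 1 higher (59.4% of all genes) and 3 not at all. With equal medians Yars, Gars and Aars were called lower (36.1% of all genes), and Iars and Tars were not called. The E-box letters CACGTG occurred in 5 of the 26 genes with an entry (19.2%), Farsb, Ears2, Aars, Iars and Tars. The share of all promoters, by entry, was 7.15%. The tested members of that group changed by 0.74, 0.04, 0.21 and 0.35 in the order Farsb, Aars, Iars and Tars.

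**Figure D5:**
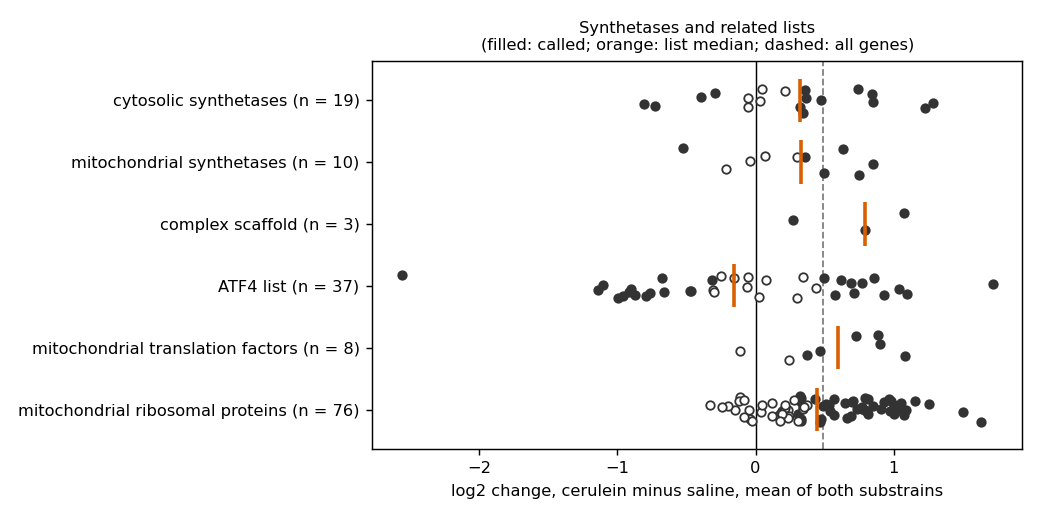
Log2 change after cerulein on the deposited scale (horizontal axis, mean of both substrains) of each tested gene in the cytosolic and mitochondrial synthetases and 4 related lists; filled points were called, orange bars are list medians and the dashed line is the all-gene median of 0.49. The synthetase medians (0.32 and 0.33) lie between that of the ATF4 list (-0.16) and that of the mitochondrial translation factors (0.59); with equal medians every value is lower by 0.58, which turns both synthetase medians below 0.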

How the data were processed

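The authors deposited log2 probe set signals of 12 Affymetrix arrays. GCRMA and Partek are named, with no version, in the submitters' processing notes; further steps are not given in the sources used here. RNA was extracted with Trizol and biotin-labelled, per the labels' protocols. The values were used as deposited. Of 45101 probe sets, 34958 carried 1 gene in the platform annotation, which gives older symbols for some genes; 932 carried several and 9211 none. A gene was tested where its signal exceeded log2 4 on at least 3 arrays, through its probe set with the highest mean.

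Group means of all 12 arrays were fitted for 8505 genes with limma 3.58.1 in R 4.3.3 (moderated, with an intensity trend, 8 residual degrees of freedom). Calls required p below 0.05 after Benjamini-Hochberg adjustment over the 8505 genes. The 6 comparisons were the cerulein effect (averaged over substrains, in NHsd, in J, and J minus NHsd) and the substrain difference under each treatment. A gene under log2 4 on all arrays of a group was given a fold bound. The number of arrays limits the precision.

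The synthetase genes and the lists were chosen with earlier results of these data known. Values on every array were given for genes that changed by at least 1 log2 unit in a comparison where they were called, for the 5 with the highest mean and for those whose call differed between scalings, as ranges where no result turned on single arrays; other lists were given with up to 3 called genes of largest change. The values on every array of Yars, Mars1 and Fars2, and the naming of Asns and Atf4, were chosen after their values were seen. The alternatives were other scalings (equal medians, quantile), no filter or one at log2 6, averaging each gene's probe sets, no trend, robust moderation, only the groups compared, a replicate term, leaving out each array, and, chosen after seeing the data, a fit of every probe set that passed the filter. The same-numbered mice correlated above 0.1 in 6 of 18 pairs, so the numbers were not taken to pair them. The pipeline was checked on simulated data. Promoter sequences came from RefSeq (GRCm38.p6). One stretch of sequence is not reported here. Tables and plots used Python 3.11.15, pandas 2.3.3 and matplotlib 3.10.9.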

Additional observations from a re-analysis of the deposited data

How the results depend on the processing

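The scaling between arrays moved the counts most. In the mean of both substrains, 15 synthetase genes were called higher as deposited, 2 with equal medians and 2 after quantile normalization, and 5, 14 and 13 lower. In NHsd the numbers were 13, 2 and 2 higher and 2, 11 and 11 lower, and in J 9, 3 and 2 higher and 3, 14 and 12 lower. Of all 8505 genes after quantile normalization, 1817 were called higher and 2254 lower in NHsd, and 1852 and 2325 in J. After cerulein, J against NHsd gave 0 lower as deposited and 1 (Wars) with either scaling. Equal medians turned the sign of Hars (-0.11), Iars2 (-0.22), Kars (-0.26), Lars (-0.22), Nars2 (-0.087), Qars (-0.21) and Tars (-0.24), and quantile normalization that of Iars2 (-0.21), Kars (-0.17), Lars (-0.13), Nars2 (-0.11), Qars (-0.10) and Tars (-0.13). A filter at log2 6 left 19 of these genes and 4762 of all genes. Of the 19, 9, 7 and 5 were called higher in the mean, NHsd and J. Of the 4762, 3018, 2609 and 2463 were. That filter moved the change of the cytosolic minus mitochondrial difference from -0.016 to 0.28, since fewer mitochondrial genes remained. When each gene's probe sets were averaged, 4 were lower in NHsd, as were 567 of all 8505 genes.

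Leaving out 1 array at a time gave 12 to 16 higher and 3 to 5 lower in the mean, the 3 without J saline replicate 2 or 3. It gave 8 to 14 higher and 2 to 2 lower in NHsd, and 6 to 10 higher and 3 to 4 lower in J. For J against NHsd after cerulein it gave 0 to 1 lower, the 1 without NHsd cerulein replicate 2. Among all 8397 to 8488 genes tested in these fits, 4691 to 5135 were called higher and 751 to 958 lower in the mean. In NHsd 3360 to 4534 were higher and 419 to 685 lower, and in J 3375 to 4141 and 513 to 716. For J against NHsd after cerulein 3 to 7 were lower. The cytosolic minus mitochondrial change ran from -0.075 to 0.019. Lars lost its call in 10 of the 12 fits, Iars2 in 6 and Cars and Fars2 in 4 each, and Farsa was not tested in those without a J cerulein array, since it then missed the filter.

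With the replicate number as a block, 14 genes were higher and 5 lower in the mean, 13 and 2 in NHsd and 11 and 3 in J. Of all 8505 genes, 5086 were then higher and 866 lower in the mean, 4172 and 584 in NHsd and 4086 and 635 in J. Lars was the only synthetase gene of the mean comparison to lose its call. A mouse correlated best with one of its own number in 6 of 12 cases. Signals near log2 4 compress differences, which limits Farsa, Hars2, Nars2 and the 5 untested genes.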

Other observations

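Enzymes that make and modify tRNA act before or beside its charging. Of 20 tested genes of tRNA modification, 15 were called higher after cerulein (59.4% of all genes) and 1 lower (10.1% of all genes), with a median change of 0.52. The largest included both subunits of the methyltransferase for adenosine in the T loop. These were Trmt6 (1.85 ± 0.13 SE, limma adjusted p = 1.9e-07) and Trmt61a (1.23 ± 0.12, limma adjusted p = 2.2e-06). Their saline means lay under log2 4, so the sizes are inexact. A gene that passed the filter only through cerulein arrays had to differ, and its p is then no support. Trmt10c, of mitochondrial tRNA methylation and cleavage, was also among the largest (1.29 ± 0.21, limma adjusted p = 0.000129). Mettl1, the methyltransferase for guanosine in the variable loop, fell by 0.53 (adjusted p = 0.00197). With equal medians the list held 5 higher and 4 lower, and those 4 genes kept their calls. Of 17 tested genes of tRNA processing and export, 9 were called higher and 1 lower, and with equal medians 3 were higher and 5 lower. Of all genes, 59.4% were called higher and 10.1% lower on the deposited scale, and 26.6% and 36.1% with equal medians. Trnt1, which adds the CCA end that synthetases charge, changed by 1.83 ± 0.17 (limma adjusted p = 1.39e-06), Pop4 of RNase P, with saline means under log2 4, by 1.56 ± 0.15 (adjusted p = 2.62e-06) and Ssb, the La protein, by 1.53 ± 0.23 (adjusted p = 7.57e-05). Elac1 changed by -0.34 (adjusted p = 0.0299).

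Of 76 tested mitochondrial ribosomal protein genes, 46 were called higher (59.4% of all genes) and 0 lower (10.1% of all genes) after cerulein, with a median change of 0.45 against 0.49 for all genes tested. The largest were Mrpl16 (1.63 ± 0.18, limma adjusted p = 7.66e-06), Mrps18b (1.499 ± 0.14, adjusted p = 1.6e-06) and Mrpl13 (1.25 ± 0.15, adjusted p = 1.13e-05). With equal medians 9 were higher (26.6% of all genes) and 23 lower (36.1% of all genes).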
